A study of Mus musculus with 9 samples.

Results

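Transcripts of 9 Dnajb genes, which encode J-domain co-chaperones of the Hsp70 family, were followed in ovulated mouse oocytes, which wait in metaphase of meiosis II for fertilisation. The genes were Dnajb1, Dnajb2, Dnajb4, Dnajb5, Dnajb6, Dnajb9, Dnajb11, Dnajb12 and Dnajb14. They are 9 of the 13 rows with a Dnajb symbol among the 24736 genes of the deposited tables. They were chosen from their measured levels (CPM, read counts scaled to a common library total) in these libraries and from how those levels compared between the groups, so their values and group differences are given as a description and carry no p-value of their own. Each of the 9 libraries held 15 oocytes from 1 female ICR mouse labelled 4 to 5 weeks old (at which point of the experiment is not said), with 3 mice in each of 3 groups. The KYZY mice were stressed for 6 weeks and then received 0.1 ml of a Kai Yu Zhong Yu (KYZY) decoction, a herbal medicine, by gavage every day for 4 weeks. The stress mice went through the same 6 weeks of chronic unpredictable mild stress, in which each day brought a stressor such as tail pinch, cold swimming, restraint, wet bedding, continuous light, or loss of food or water. The control mice were not stressed. Females of all 3 groups were superovulated with 7.5 IU of PMSG and 7.5 IU of hCG, and cumulus cells were removed from the ovulated oocytes with hyaluronidase. No group in the labels was stressed and then given only the vehicle for those 4 weeks, and sequencing is described in other words for the KYZY libraries (NovaSeq) than for the other 6, so the recipe, the added weeks and the sequencing run cannot be told apart in any difference of KYZY from another group. Each sequencing description covers whole groups, so no value within a batch exists for these comparisons.

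J-domain proteins hand unfolded clients to Hsp70 chaperones and stimulate their ATPase through a conserved His-Pro-Asp (HPD) loop. In the cytosol and nucleus they work with Hsc70 (Hspa8) and inducible Hsp70, and inside the endoplasmic reticulum (ER) with BiP (Hspa5). A fully grown oocyte is transcriptionally silent, so its transcript levels reflect what was stored during growth and what has since been degraded.

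Library totals ran from 46324094 to 106990821 counts. The labelled cell type was checked on oocyte markers, of which 15 of 15 with a row were above 0 in every library. Their summed level was 72900 to 106000 CPM in KYZY, 78400 to 93600 in stress and 62000 to 92800 in control libraries. RNA of cumulus and granulosa cells was present to a varying degree. Of 31 such markers, 18 to 29 were above 0 in KYZY, 13 to 27 in stress and 11 to 29 in control libraries, and Pgr and Areg were at 0 throughout. Their levels summed to 767 to 1810, 699 to 1440 and 623 to 909 CPM in the same order. By group means, most of each sum came from Serpine2 and Sdc1, so a ranking by this sum leans on them. Serpine2 averaged 557.8, 658.4 and 409.4 CPM and Sdc1 352.3, 251.2 and 201.5 CPM in KYZY, stress and control libraries. Of the 26 that could be tested, 25 had a positive log2 fold change in KYZY against stress (median 1.85), 24 in KYZY against control (median 1.91) and 13 in stress against control (median 0.16), and 0 were called. Cyp11a1, a steroidogenic enzyme picked after its values were seen, was at 6.35, 165 and 428 CPM in KYZY 1, 2 and 3, at 1.12, 10.6 and 14.7 in stress 1, 2 and 3, and at 0.48, 8.76 and 228 in control 1, 2 and 3. KYZY 2, KYZY 3 and control 3 thus stood apart in Cyp11a1. With stress 3, which did not, they were the 4 libraries of highest summed cumulus and granulosa markers, with 1810 and 1310 CPM in KYZY 2 and KYZY 3, 1440 in stress 3 and 909 in control 3, against at most 767 in the other 5. Oviduct markers summed to 977 to 1750 CPM in KYZY, 1330 to 1790 in stress and 1040 to 2330 in control libraries. Nearly all of this came from Tubb4b, with means of 1008, 1131 and 1075 CPM in that order, and Cdh1, with 348.7, 377.6 and 396.3. Ovgp1, of the same list, averaged 2.978, 0.7224 and 1.809 CPM. Stroma and endothelium markers summed to 126 to 218, 108 to 164 and 120 to 205 CPM, most of it from Myh11, with means of 107.8, 100.9 and 93.75. Blood and immune markers summed to 0.805 to 66.9, 0.92 to 3.35 and 0.496 to 10.9 CPM, with Hbb-bs, Hbb-bt and S100a9 among those at 0 throughout.

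The coding sequence around the HPD loop shows what the family shares and how well its members can be told apart by sequencing. It is given for the 3 most abundant members and for 3 of the ER members, read from the longest coding transcript of GENCODE M21 (GRCm38), 5′ to 3′ on the coding strand, 81 bases each, with the HPD codons in capitals:
Dnajb1: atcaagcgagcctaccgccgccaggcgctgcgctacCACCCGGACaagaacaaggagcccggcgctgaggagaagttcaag
Dnajb4: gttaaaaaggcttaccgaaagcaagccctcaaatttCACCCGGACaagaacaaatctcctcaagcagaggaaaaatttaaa
Dnajb6: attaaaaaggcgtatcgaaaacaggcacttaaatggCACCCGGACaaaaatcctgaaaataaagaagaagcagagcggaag
Dnajb9: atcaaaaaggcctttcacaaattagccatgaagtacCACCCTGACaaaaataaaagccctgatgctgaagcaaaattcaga
Dnajb12: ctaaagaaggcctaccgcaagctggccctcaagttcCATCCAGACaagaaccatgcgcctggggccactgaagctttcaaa
Dnajb14: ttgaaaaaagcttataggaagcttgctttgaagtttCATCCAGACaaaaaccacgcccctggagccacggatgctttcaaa
These stretches lie at chr8:83608389-83608469 (plus strand) for Dnajb1, chr3:152193450-152193530 (minus strand) for Dnajb4, chr5:29748425-29751007 (plus strand) for Dnajb6, chr12:44208100-44208180 (minus strand) for Dnajb9, chr10:59890904-59890984 (plus strand) for Dnajb12 and chr3:137892872-137892952 (plus strand) for Dnajb14, and of these 6 only that of Dnajb6 is split by an intron. All 9 members had the HPD codons. They began at codon 31 in Dnajb2 and Dnajb6, at codon 32 in Dnajb1, Dnajb4 and Dnajb5, at codons 53 and 54 in Dnajb11 and Dnajb9, and at codons 136 and 139 in Dnajb14 and Dnajb12. The members closest to each other over these 81 bases were Dnajb12 and Dnajb14, with 62 identical bases (76.5%), followed by Dnajb1 and Dnajb5 with 60 (74.1%). Dnajb9 and Dnajb11 were the least alike, with 37 identical bases (45.7%).

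Among the 9 members, Dnajb6 had the largest share of its sequence in common with other genes. No window of 50 bases in the longest transcript of Dnajb2, Dnajb4, Dnajb5, Dnajb11 or Dnajb12 recurred in a transcript of another gene, on either strand. In Dnajb6, 42.77% of such windows recurred in transcripts of 10 other genes, led by Gm2541, Gm6395, Gm13414 and Gm5917. None of these leading genes has a row in the tables, while 2 of the 10 genes have one. The level of Dnajb6 is therefore uncertain in that reads of these copies may be included or its own lost. The share was 5.8% in Dnajb9, all of it with Gm6568, which was at 0 in 8 of the 9 libraries. It was 4.32% in Dnajb14 and 0.44% in Dnajb1.

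The 9 members spanned a wide range of levels. Per kilobase of the longest transcript, Dnajb4 averaged 102 ± 50.7 CPM per kb, Dnajb1 96.3 ± 32.1 and Dnajb6 60.5 ± 4.93 (SD, n = 9 libraries). Dnajb4 was above Dnajb1 in 4 of 9 libraries, so these neighbours did not differ beyond their spread, and Dnajb1 was above Dnajb6 in 8 of 9. Dnajb11 followed at 7.85 ± 0.998 CPM per kb, below Dnajb6 in 9 of 9 libraries. The order went on with Dnajb12 at 1.56 ± 0.411, Dnajb2 at 0.888 ± 0.198 and Dnajb9 at 0.749 ± 0.514 CPM per kb, of which Dnajb2 was above Dnajb9 in 5 of 9 libraries. Dnajb14 stood at 0.165 ± 0.0488 and Dnajb5 at 0.0501 ± 0.0425 CPM per kb. With the mean length of the coding transcripts in place of the longest, Dnajb6 came first at 152 ± 12.4 CPM per kb, above Dnajb4 in 4 of 9 libraries, and Dnajb1 came after both at 98.6 ± 32.9. The order among the 3 most abundant members therefore depended on the length used, while their distance from the other 6 did not. It also differed between groups. Per kb of the longest transcript, control means were 135 for Dnajb4, 111 for Dnajb1 and 59.7 for Dnajb6. KYZY means were 52.2, 73.0 and 57.4 in that order. The SD over 9 libraries thus includes differences between groups.

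**Figure D1:**
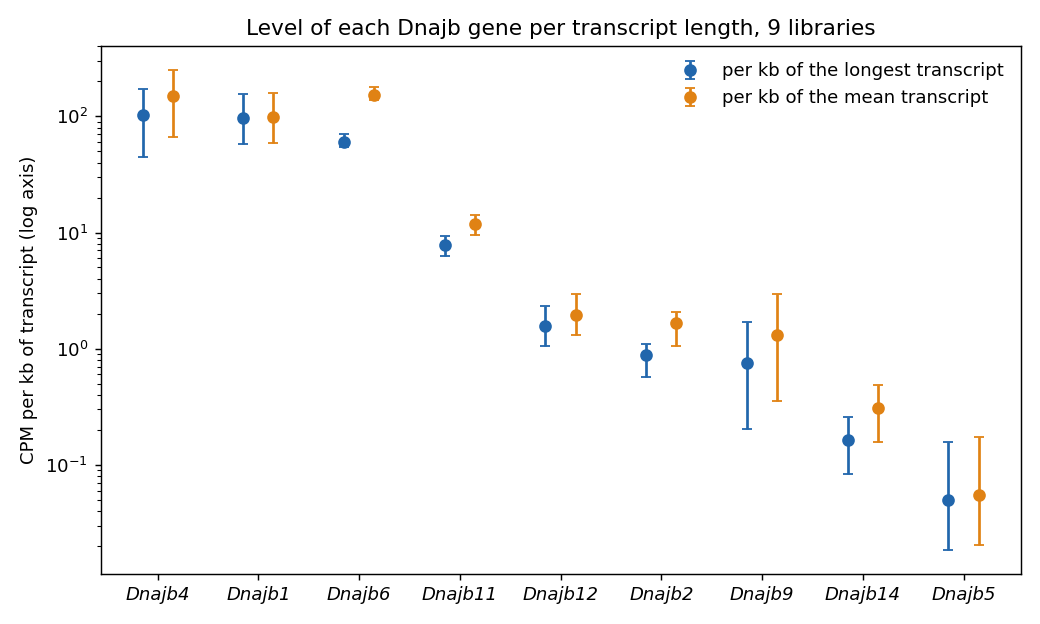
Level of each Dnajb gene in CPM per kb of transcript on a log axis, as the mean over 9 libraries with bars from the lowest to the highest library; blue uses the longest coding transcript and orange the mean of the coding transcripts. Dnajb4, Dnajb1 and Dnajb6 lie at 60.5 to 102 CPM per kb of the longest transcript, and Dnajb5 lies lowest at 0.0501.

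Dnajb4, a cytosolic co-chaperone closely related to Dnajb1, showed the largest differences between groups among the 3 abundant members. It stood at 156, 119 and 111 CPM in KYZY 1, 2 and 3, at 318, 145 and 423 in stress 1, 2 and 3, and at 416, 254 and 331 in control 1, 2 and 3. Every KYZY library lay below every control library, while stress 2 fell within the KYZY range. KYZY oocytes averaged 129 ± 23.9 CPM and stress oocytes 295 ± 140 (SD over 3 libraries each), a fitted log2 fold change of -1.20 with a standard error (SE) of 0.369. Against the control mean of 334 ± 80.9 CPM the log2 fold change of KYZY was -1.38 (SE 0.371), and that of stress was -0.18 (SE 0.364). Both differences of KYZY were negative under all 17 alternatives tried, from -1.50 to -0.56 against stress and from -1.54 to -1.08 against control. The smallest values, -0.56 and -1.08, came without control 3, stress 3, KYZY 2 and KYZY 3, which leaves KYZY 1 alone in its group. Cumulus and granulosa markers summed to 767, 1810 and 1310 CPM in KYZY 1, 2 and 3, to 699, 736 and 1440 in stress 1, 2 and 3, and to 745, 623 and 909 in control 1, 2 and 3. The part of cumulus RNA in the level of Dnajb4 was not tested. In bulk samples such as these, fewer cells with a transcript and less transcript per cell cannot be told apart.

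Dnajb1, the classical heat-inducible Hsp40 of the cytosol and nucleus, stood at 288, 174 and 194 CPM in KYZY 1, 2 and 3, at 289, 283 and 372 in stress 1, 2 and 3, and at 464, 346 and 185 in control 1, 2 and 3. The lowest 3 of the 9 values were those of KYZY 2, KYZY 3 and control 3, and all groups overlapped. These 3 libraries also had the highest Cyp11a1, 165, 428 and 228 CPM, against at most 14.7 in the rest. Cyp11a1 was picked after its values were seen. The summed cumulus and granulosa markers gave another order, with 1810 CPM in KYZY 2, 1440 in stress 3, 1310 in KYZY 3 and 909 in control 3. In stress 3 Dnajb1 was not low, at 372 CPM. The part of cumulus RNA in the level of Dnajb1 was not tested. The log2 fold change was -0.52 (SE 0.341) for KYZY against stress, -0.60 (SE 0.341) for KYZY against control and -0.08 (SE 0.340) for stress against control. Without the 4 libraries of highest cumulus sum, which leaves KYZY 1 at 288 CPM alone in its group, the first of these was 0.03. The value for stress against control ran from -0.49 without those 4 libraries to 0.24 without control 1. Leaving out control 1 gave -0.28 for KYZY against control and leaving out control 3 gave -0.86.

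Dnajb6, which keeps aggregation-prone proteins soluble, was the steadiest member. It stood at 168, 172 and 163 CPM in KYZY 1, 2 and 3, at 183, 173 and 207 in stress 1, 2 and 3, and at 185, 159 and 178 in control 1, 2 and 3. Its SD of log2 CPM over the 9 libraries was 0.114, and the highest library was 1.30 times the lowest. Means of 168 ± 4.82 CPM in KYZY and 188 ± 17.5 in stress oocytes did not overlap by library, but the gap between KYZY 2 and stress 2 was narrow and the log2 fold change was -0.16 (SE 0.185). The log2 fold change of stress against control, whose mean was 174 ± 13.7 CPM, was 0.11 (SE 0.185).

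The other cytosolic members were scarce. Dnajb2, which has ubiquitin-interacting motifs and sorts clients towards the proteasome, stood at 2.21, 1.97 and 3.33 CPM in KYZY 1, 2 and 3, at 3.24, 2.97 and 1.74 in stress 1, 2 and 3, and at 2.78, 2.89 and 3.37 in control 1, 2 and 3. The groups overlapped, and its 3 log2 fold changes lay between -0.27 and -0.09. Dnajb5, a relative of Dnajb1 and Dnajb4, had 8, 13 and 8 counts in KYZY, 5, 14 and 10 in stress and 5, 7 and 40 in control libraries 1, 2 and 3. A value of 12 counts corresponds to 3 read pairs, since 1 read pair appeared to be worth about 4 units, and Dnajb5 was at or under 12 counts in 6 of the 9 libraries. Its level was 0.16 ± 0.0324 CPM in KYZY, 0.113 ± 0.0476 in stress and 0.223 ± 0.258 in control oocytes, and the highest value, 0.521 CPM, belonged to control 3. The log2 fold change of stress against control was -0.98 (SE 1.29) with that library and 0.59 without it, so no direction could be given for Dnajb5 at this depth.

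**Figure D2:**
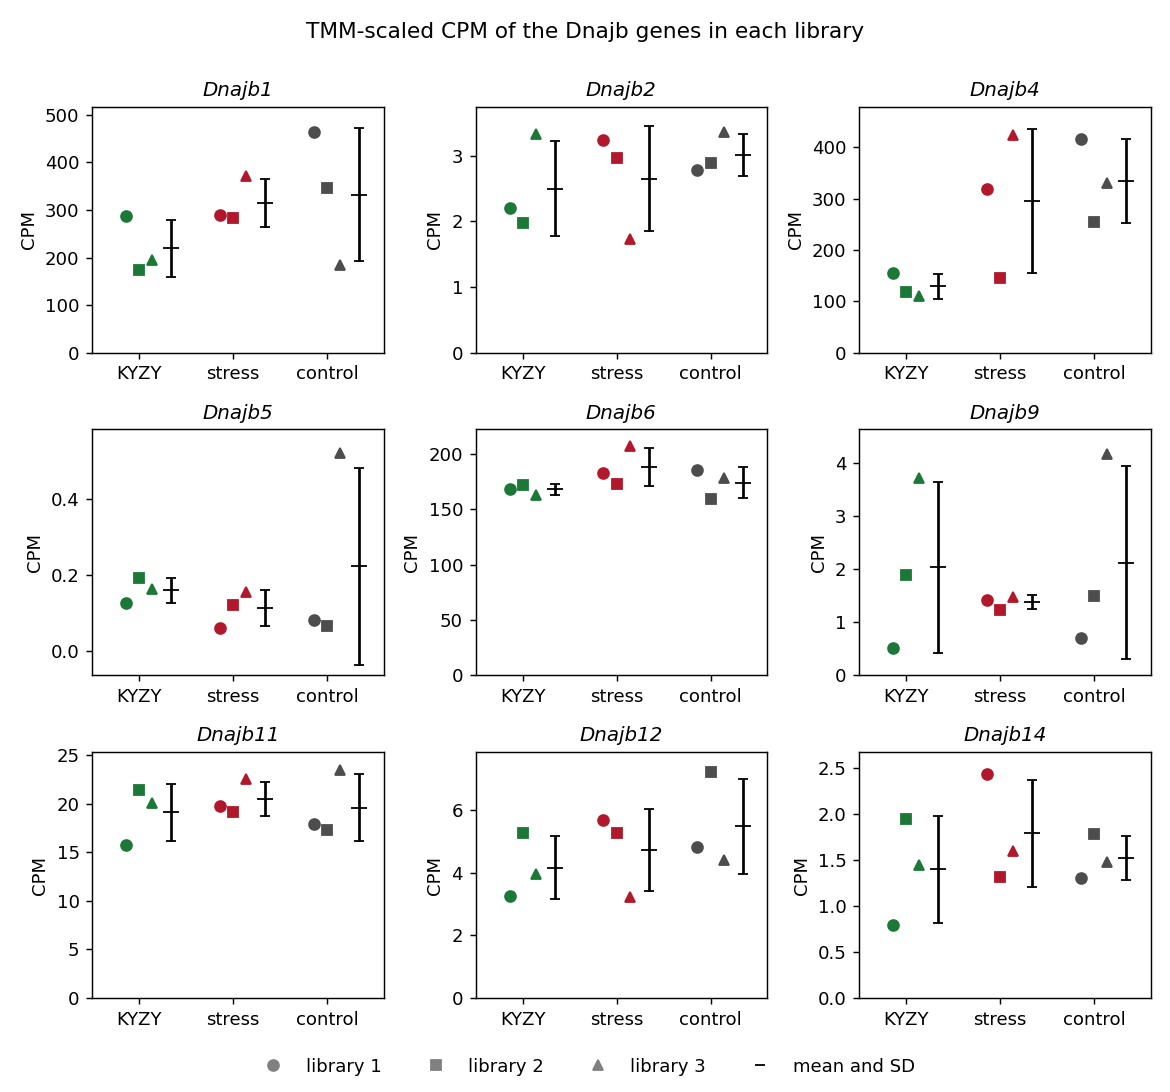
CPM of each of the 9 Dnajb genes in every library, grouped as KYZY, stress and control; symbols give the library number, and the black mark with its bar is the group's mean and SD (n = 3). Dnajb4 lies between 111 and 156 CPM in the KYZY libraries and between 254 and 416 CPM in the control libraries, while Dnajb6 stays between 159 and 207 CPM in all 9.

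Among the members of the ER, Dnajb11 was abundant and even. Dnajb11 (ERdj3), a luminal co-chaperone of BiP that binds unfolded secretory proteins, stood at 15.8, 21.4 and 20.1 CPM in KYZY 1, 2 and 3, at 19.8, 19.2 and 22.5 in stress 1, 2 and 3, and at 17.9, 17.3 and 23.5 in control 1, 2 and 3. The groups overlapped, with log2 fold changes of -0.10 (SE 0.202) for KYZY against stress, -0.04 (SE 0.202) for KYZY against control and 0.07 (SE 0.202) for stress against control. Its partner BiP (Hspa5) averaged 65.9 ± 17.0 CPM in KYZY, 57.1 ± 23.3 in stress and 58.2 ± 14.7 in control oocytes.

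Dnajb9 (ERdj4), a luminal co-chaperone that recruits BiP to the stress sensor IRE1, varied most of all members, with an SD of log2 CPM of 0.962 over the 9 libraries. It stood at 0.505, 1.88 and 3.71 CPM in KYZY 1, 2 and 3, at 1.42, 1.23 and 1.47 in stress 1, 2 and 3, and at 0.711, 1.49 and 4.17 in control 1, 2 and 3. The spread lay within the KYZY and control groups, and the stress libraries were close together. The 3 highest values were those of control 3, KYZY 3 and KYZY 2, the libraries of highest Cyp11a1 and of lowest Dnajb1. The summed cumulus and granulosa markers, however, put stress 3 at 1440 CPM, above KYZY 3 at 1310 and control 3 at 909. Dnajb9 in stress 3 was at 1.47 CPM. The part of cumulus RNA in the level of Dnajb9 was not tested. The log2 fold change of KYZY against stress was 0.56 (SE 0.733). It turned to -1.37 without the 4 libraries of highest cumulus sum, which leaves KYZY 1, the lowest library at 0.505 CPM, alone in its group. The log2 fold change of stress against control was -0.63 (SE 0.733) and turned to 0.32 without control 3. Ern1, the gene of IRE1 alpha, averaged 788 ± 220 CPM in KYZY, 799 ± 368 in stress and 592 ± 131 in control oocytes.

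Dnajb12 and Dnajb14 sit in the ER membrane with the J domain in the cytosol, where they work with Hsc70 in the degradation of misfolded membrane proteins. Dnajb12 stood at 3.27, 5.27 and 3.98 CPM in KYZY 1, 2 and 3, at 5.69, 5.27 and 3.23 in stress 1, 2 and 3, and at 4.84, 7.22 and 4.40 in control 1, 2 and 3. Dnajb14 stood at 0.79, 1.95 and 1.45 CPM in KYZY 1, 2 and 3, at 2.44, 1.32 and 1.60 in stress 1, 2 and 3, and at 1.31, 1.78 and 1.48 in control 1, 2 and 3. KYZY 1 was the lowest library for Dnajb14 and, after stress 3, the next lowest for Dnajb12, and no pair of groups was separate for either gene. Log2 fold changes of KYZY against control were -0.40 (SE 0.319) for Dnajb12 and -0.12 (SE 0.425) for Dnajb14. Without the 4 libraries of highest cumulus sum, where the KYZY group is KYZY 1 alone, they were -0.86 and -0.94, and without KYZY 1 that of Dnajb14 was 0.15.

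Dnajb1, Dnajb4 and Dnajb6 made up 93.4% to 97.5% of the summed CPM of the 9 genes. That sum was 635, 498 and 500 CPM in KYZY 1, 2 and 3, against 822, 631 and 1030 in stress 1, 2 and 3 and 1090, 790 and 731 in control 1, 2 and 3. All KYZY libraries lay below all control libraries, and stress 2 lay just under KYZY 1. Of the 9 genes, only Dnajb4 was itself separate between KYZY and control, where 4.79% of all genes tested were separate and lower. The genes were chosen with these contrasts known, so nothing is read from the separation of the sums. The share of Dnajb4 in the sum was 24.5%, 23.9% and 22.2% in KYZY 1, 2 and 3, against 38.7%, 23.0% and 41% in stress 1, 2 and 3 and 38.1%, 32.2% and 45.3% in control 1, 2 and 3. The share of Dnajb6 was 26.5%, 34.6% and 32.5% in KYZY 1, 2 and 3, against 22.3%, 27.4% and 20% in stress 1, 2 and 3 and 16.9%, 20.1% and 24.4% in control 1, 2 and 3. The ratio of Dnajb4 to Dnajb6, taken as CPM within a library and so free of the scaling between libraries, averaged 0.766 ± 0.137 over the KYZY, 1.54 ± 0.625 over the stress and 1.90 ± 0.328 over the control libraries (SD, n = 3). The ratio of Dnajb4 to Dnajb1 was 0.598 ± 0.0750, 0.917 ± 0.352 and 1.14 ± 0.569 in the same order.

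**Figure D3:**
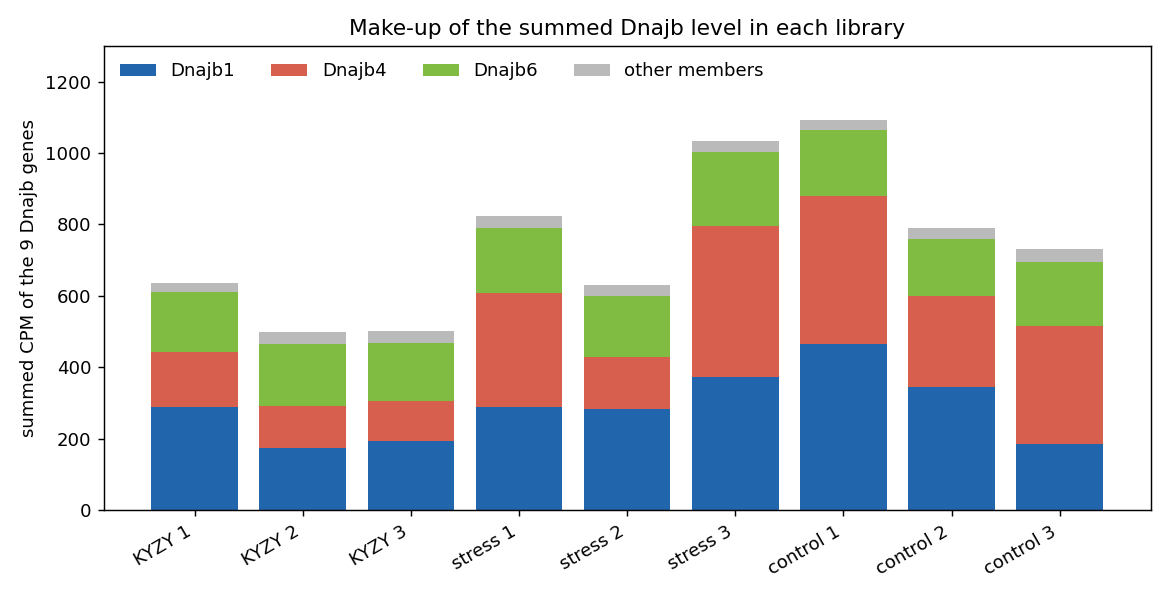
Summed CPM of the 9 Dnajb genes in each library, split into Dnajb1, Dnajb4, Dnajb6 and the other members. The KYZY bars reach 498 to 635 CPM and the control bars 731 to 1090 CPM, and the Dnajb4 segment is 22.2% to 24.5% of the bar in KYZY libraries. The genes were chosen with the group differences known.

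In the fit over all genes, 0 of the 9 members were called in any comparison, where 0% of the 13890 genes tested were called in stress against control, 0% in KYZY against stress and 0% in KYZY against control (edgeR's quasi-likelihood test with Benjamini-Hochberg adjustment, threshold 0.05). At an unadjusted p under 0.05 there were 373, 553 and 380 genes in these comparisons, and DESeq2 called 22, 13 and 1 genes, 0 of them members. All 9 members passed the filter on low counts. In stress against control, 0 members were separate by library in either direction, against 4.38% of all genes lower and 3.51% higher. In KYZY against stress, 1 of 9, Dnajb6, was separate and lower and 0 were separate and higher, against 5.44% and 3.76% of all genes. In KYZY against control, 1 of 9, Dnajb4, was separate and lower and 0 were separate and higher, against 4.79% and 2.43% of all genes. The members' choice used these contrasts, so nothing is read from these counts.

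The comparisons share libraries, and each is given on its own. In stress against control, 6 of 9 members had a negative log2 fold change, with a median of -0.18 and a range of -0.98 to 0.23, beside a median of -0.03 over all genes tested. In KYZY against stress, 7 of 9 were negative, with a median of -0.16 and a range of -1.20 to 0.56, beside 0.01 over all genes. In KYZY against control, 9 of 9 were negative, with a median of -0.27 and a range of -1.38 to -0.04, beside 0.00 over all genes, of which 6988 of 13890 were negative. Of these 9, Dnajb11, Dnajb6 and Dnajb9 lay within 0.07 of 0. Dnajb5, at -0.48 (SE 1.29), turned to 1.12 without control 3, and Dnajb14, at -0.12, to 0.15 without KYZY 1. Since the 9 genes were chosen with these contrasts known, nothing is read from the counts of signs or the medians of the members.

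**Figure D4:**
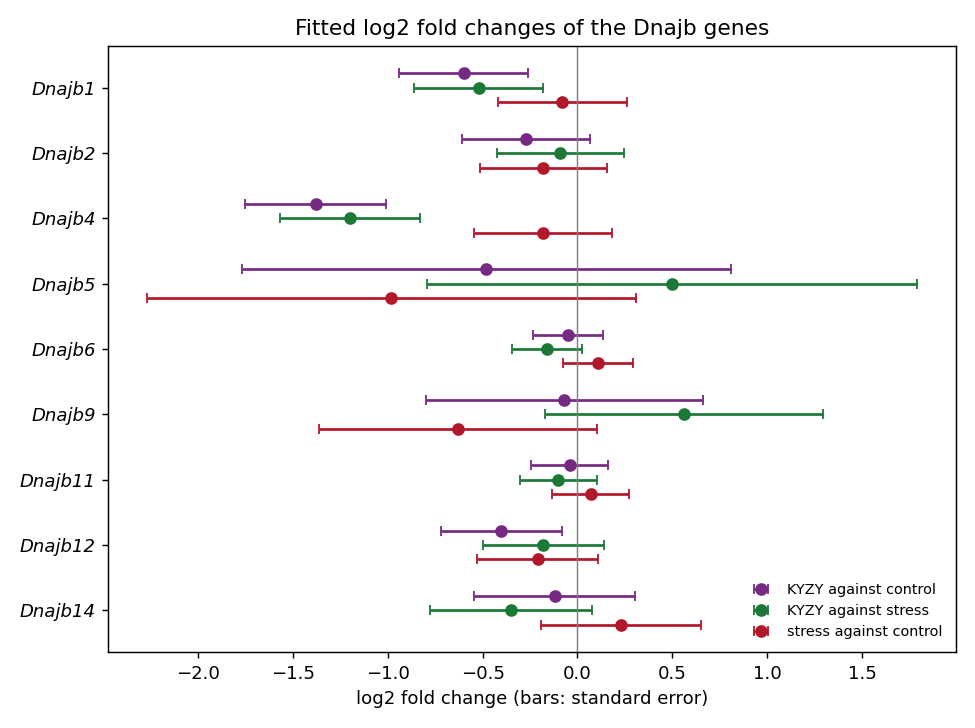
Fitted log2 fold changes of the 9 Dnajb genes with standard errors as bars, for KYZY against control (purple), KYZY against stress (green) and stress against control (red). Dnajb4 stands at -1.38 and -1.20 in the KYZY comparisons, and the bars of Dnajb5 are the widest, with a standard error of 1.29.

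The chaperone network around the Dnajb genes was read from lists of Hsp70 and Hsp110 chaperones, their cofactors, other J proteins and ER quality-control genes. In edgeR's test 0 of their genes passed in any of the 3 comparisons, and DESeq2 called 0 of them too. At an unadjusted p under 0.05 there were 0 in stress against control, 1 cofactor and 1 ER quality-control gene in KYZY against stress, and 0 in KYZY against control. Of the 15 Hsp70 and Hsp110 genes listed, 13 were tested, of which 8 were higher in stress than in control, 4 higher in KYZY than in stress and 6 higher in KYZY than in control by sign alone, and the median of their log2 fold changes was 0.13 in stress against control, -0.08 in KYZY against stress and 0.00 in KYZY against control. Hspa8, the constitutive Hsc70, stood at 80.1, 280 and 173 CPM in KYZY 1, 2 and 3, at 90.3, 89.6 and 199 in stress 1, 2 and 3, and at 123, 83.5 and 132 in control 1, 2 and 3. Its log2 fold change of 0.65 (SE 0.463) for KYZY against control came with the highest levels in KYZY 2, stress 3 and KYZY 3 and had an adjusted p of 0.996 in edgeR's test. Hspa9, the mitochondrial Hsp70, averaged 176 ± 14.4 CPM in KYZY, 186 ± 53.0 in stress and 156 ± 15.6 in control oocytes, and Hspa14, a ribosome-associated Hsp70, 69.8 ± 5.42, 74.0 ± 20.8 and 65.7 ± 10.5.

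All 16 cofactors listed were tested, with medians of -0.08 in stress against control, 0.11 in KYZY against stress and -0.07 in KYZY against control. By sign alone 6, 11 and 6 of them were higher in these comparisons, and in KYZY against stress their log2 fold changes ranged from -0.29 to 4.15. The largest of these, picked after their values were seen, belonged to scarce transcripts: Bag2 at 4.15 (SE 2.61), Hspbp1 at 3.20 (SE 2.13) and Bag1 at 2.67 (SE 0.962), each with an adjusted p of 0.935 in edgeR's test. Bag1, a nucleotide exchange factor of Hsp70, averaged 4.98 ± 3.80 CPM in KYZY and 0.776 ± 0.184 in stress oocytes. The cumulus markers were higher in KYZY than in stress too, 25 of 26 by sign, and their part in these values was not tested. Hsf1, the heat shock transcription factor known as an oocyte maternal factor in mice, stood at 103 ± 16.8 CPM in KYZY, 118 ± 5.34 in stress and 115 ± 32.1 in control oocytes. Bag4, an Hsp70 nucleotide exchange factor, averaged 75.0 ± 13.1, 92.0 ± 4.38 and 88.8 ± 14 CPM in the same order. Hsbp1, a binding protein of heat shock factor, averaged 69.1 ± 11.7, 65.8 ± 12.1 and 64.4 ± 8.47, and Stip1, the Hop adaptor between Hsp70 and Hsp90, 55.3 ± 15, 61.8 ± 6.42 and 57.2 ± 5.90.

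Of the other J proteins listed, 34 of 36 were tested, with medians of 0.00, 0.01 and -0.03 in stress against control, KYZY against stress and KYZY against control. Dnaja1, the main cytosolic J protein of class A, averaged 795 ± 91.5 CPM in KYZY, 945 ± 255 in stress and 827 ± 179 in control oocytes. Dnaja2, a cytosolic relative, averaged 465 ± 37.3, 443 ± 233 and 378 ± 127 CPM in that order. Dnajc3, the ER co-chaperone p58IPK, averaged 411 ± 83.3, 420 ± 163 and 361 ± 84.2, and Dnajc8, a splicing-associated J protein, 106 ± 24.9, 133 ± 18.8 and 119 ± 9.15. The log2 fold change of Dnaja1 for KYZY against control was -0.06 (SE 0.279).

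All 29 ER quality-control genes were tested, with medians of 0.04 in stress against control, -0.02 in KYZY against stress and 0.11 in KYZY against control. Rnf185, a ubiquitin ligase of the ER membrane, averaged 808 ± 289 CPM in KYZY, 842 ± 22.6 in stress and 749 ± 201 in control oocytes. Pdia3, a disulfide isomerase, averaged 228 ± 28.9, 233 ± 95.3 and 199 ± 31.7 CPM in the same order. The smallest adjusted p of any gene on the 4 lists was 1.00 in stress against control, 0.935 in KYZY against stress and 0.996 in KYZY against control in edgeR's test.

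For the 3 members of largest spread, the genes of most alike pattern were found by the root mean square difference of log2 CPM over the 9 libraries, each gene's mean removed, among 13881 genes. They were Pim1 (0.281) and Pdzph1 (0.304) for Dnajb9, Lekr1 (0.318) and Gemin2 (0.323) for Dnajb5, and Slc14a2 (0.362) and Tymp (0.370) for Dnajb4. Pim1 stood at 0.316, 1.25 and 2.84 CPM in KYZY 1, 2 and 3, at 1.09, 0.672 and 1.20 in stress 1, 2 and 3, and at 0.595, 0.688 and 3.62 in control 1, 2 and 3, highest in control 3 and KYZY 3 as Dnajb9 was. The likeness to Dnajb4 rests on scarce transcripts, since Slc14a2 and Tymp stayed between 0.122 and 0.736 CPM. That to Dnajb5 rests on few counts, since Dnajb5 itself was at or under 12 counts in 6 libraries. Gemin2 stayed between 0.0859 and 0.495 CPM.

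The 4 Dnajb rows that are not among the 9 were at or near 0. Dnajb7 was at 0 counts in all 9 libraries, under a floor of 12 counts or 0.105 to 0.245 CPM per library. Dnajb3 had at most 16 counts, in stress 1. Dnajb8 had 13 counts and Dnajb13 had 16 counts in control 3, and elsewhere both were at 0 apart from 1 count of Dnajb8 in KYZY 1.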

How the data were processed

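RNA of 9 libraries was measured with the SMART-Seq v4 kit and Tn5 fragmentation, without molecular identifiers or strand information, per the labels' protocols. The authors deposited 1 table per library with expected counts: whole-number estimates of reads per gene symbol, not normalized. The unit was read from the values. The submitters' processing notes list HISAT2, StringTie, DESeq2, Trim Galore and bcl2fastq 2.20, with the builds GRCm38 and mm10; the role of each is not given in the sources used here. Values of 4 outnumbered their neighbours (401 genes at 4, 53 at 3 and 224 at 5 in control 1), so 1 read pair appeared to be worth about 4 units, and a count of 0 was taken to allow up to 3 read pairs (12 counts); such floors cover counting error only.

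The fit used edgeR 4.0.16 under R 4.3.3: TMM scaling, filterByExpr (minimum count 10, minimum total 15), which kept 13890 genes and dropped 10846, and a robust quasi-likelihood fit of all 9 libraries with 1 mean per group and 6 residual degrees of freedom, tested 2-sided with Benjamini-Hochberg adjustment over all genes kept. DESeq2 1.42.0 was an alternative. CPM are counts scaled to the TMM-adjusted library total. Each library came from its own mouse.

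The 9 genes and the gene lists were chosen with earlier results of these data known. All 9 members are named, with the 4 partner genes of highest mean CPM per list and the 2 most alike genes for each of the 3 members of largest SD. Some genes that this rule names are not reported here. Lengths, positions and coding sequences are from GENCODE M21 (GRCm38). No 2 libraries held identical values. The labels do not say that library numbers mark a shared animal, litter or day, and the fit has no block.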

Additional observations from a re-analysis of the deposited data

How the results depend on the processing

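Of the 27 member values (9 genes in 3 comparisons), 9 kept their sign under every alternative in which they could be fitted, of 17 tried per comparison; both differences of Dnajb4 in KYZY are among them. By over 1 SD, 10 of the 27 moved under at least 1 alternative. Dnajb4 in KYZY against stress is among these too, at -1.20 in the main fit and -0.56 without control 3, stress 3, KYZY 2 and KYZY 3. DESeq2 called 22 genes in stress against control, 13 in KYZY against stress and 1 in KYZY against control. Without control 3, stress 3, KYZY 2 and KYZY 3, edgeR called 148, 115 and 119 genes, with the spread of KYZY 1, then alone in its group, taken from the rest. Leaving out 1 library gave 0 to 2, 0 to 1 and 0 to 3 genes, all of the calls without control 3. A fit of only the 2 groups compared called 1 gene in KYZY against stress. Members and partner genes were called 0 times under all of these. The replicate block called 0 genes in each comparison. With the block, the log2 fold change of Dnajb9 was 0.08 in KYZY against stress and -0.14 in stress against control, and that of Dnajb5 was 0.03 in KYZY against control, against 0.56, -0.63 and -0.48 without it. Of the same-numbered pairs of libraries, 7 of 9, not all, had deviations correlated over 0.1 (range -0.146 to 0.559). The highest was that of control 3 with KYZY 3, and those of KYZY 2 with control 2 and stress 2 were negative. The labels give no pairing, and the origin of these correlations was not tested. Across groups, 7 of 9 libraries correlated best with their own number. RLE scaling, no filter, a CPM of at least 1 in 3 libraries, and counts divided by 4 called 0 genes too. Dnajb5 fell below the filter under some alternatives and has no value there. Its depth, at or under 12 counts in 6 libraries, limits what can be seen.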

Other observations

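Sequence shared with other genes touches the scarcest Dnajb rows as well. In the longest transcript of Dnajb8, 50.8% of 50-base windows recurred in 1700031F10Rik, which has no row in the tables, and in Dnajb13 10.07% recurred in Ucp2. Ucp2, a mitochondrial uncoupling protein, stood at 0, 16.2 and 14.3 CPM in KYZY 1, 2 and 3, at 0.11, 0.558 and 2.11 in stress 1, 2 and 3, and at 0, 0.0955 and 8.65 in control 1, 2 and 3. Dnajb13 was above 0 in control 3 alone.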
